A study of Mus musculus with 6 samples.

Results

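The clustered protocadherins were examined in the RNA of expanded mouse chondrocytes, as the 58 of 35976 rows of the count table whose gene symbol names a member of the alpha, beta or gamma cluster. These were 14 alpha, 22 beta and 22 gamma genes, and members without reads were kept. Chondrocytes, the matrix-making cells of cartilage, came from the hind limb articular cartilage of C57BL/6 x 129S4/SvJae embryos at day 18.5. They were expanded on tissue culture plastic for 16 population doublings with 2 µg/ml doxycycline, the drug that induces the histone H3.3 transgene carried by every culture. In 3 libraries the transgene was H3K9M, H3.3 with methionine in place of the lysine at residue 9, which the labels equate with suppressed H3K9 methylation (replicates 1, 3 and 5). In the other 3 it was wild-type H3.3 (H3WT, replicates 1, 2 and 4), so both groups carried an H3.3 transgene and the same drug. The promoter of the transgene, and whether libraries came from separate embryos, are not given in the sources used here. The p-values therefore measure only the spread between these libraries. Where 3 values are listed for a group, they are in the order of replicates 1, 3 and 5 for H3K9M and of replicates 1, 2 and 4 for H3WT.

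Clustered protocadherins are cadherin-like proteins of the cell surface, best known from neurons, where each cell uses its own combination of members and cells recognise others that carry the same combination. In the alpha and gamma clusters each member has its own large first exon, which encodes the outer part of the protein and its membrane span, spliced to short exons shared by the whole cluster, which encode a common cytoplasmic end. Beta genes have no shared exons. In neurons most members are chosen by promoter, in a manner that involves CTCF, cohesin, DNA methylation and the H3K9 methyltransferase SETDB1, while several C-type members at the end of the alpha and gamma clusters are used more uniformly. The question of the comparison is which of these genes differ when H3K9 methylation is suppressed.

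The libraries held 15113675 to 19606082 counts. Defining chondrocyte genes were present in every library, with all 14 of the chondrocyte list tested and summed levels of 7417 to 11643 CPM (read counts scaled to library size, with TMM factors) in H3K9M and 7321 to 19538 CPM in H3WT. Of these, 13 had a negative log2 fold change (H3K9M over H3WT), 2 of them at an unadjusted p under 0.05, and the median was -0.75. Among all tested genes 50.4% were negative and 5.77% were lower at that p. Of 12 neuronal markers, Rbfox3, Snap25, Dcx and Nefl had no read in any library, and the list summed to 41.0 to 47.2 CPM in H3K9M and 32.6 to 49.1 CPM in H3WT, carried mainly by Map2, Tubb3 and Stmn2. Sox10 and Foxd3, markers of neural crest and glia, also had no read, and that list summed to 40.4 to 63.7 CPM in H3K9M and 14.1 to 68.6 CPM in H3WT. Mbp, a myelin gene, was the only one of that list at an unadjusted p under 0.05, with 17.2 ± 2.05 CPM in H3K9M against 4.67 ± 2.21 CPM in H3WT and no overlap (edgeR log2 fold change 1.88, SE 0.39, adjusted p 0.194). Skeletal muscle genes summed to 27.3 to 225.1 CPM in H3K9M and 13.2 to 33.6 CPM in H3WT, with 3 of the 5 tested at an unadjusted p under 0.05, all 3 higher in H3K9M (6.42% of all tested genes were). Fibroblast genes summed to 12999 to 33718 CPM in H3K9M and 10916 to 39450 CPM in H3WT, lowest in H3K9M replicate 3 and H3WT replicate 2. Macrophage markers summed to 8.04 to 16.2 CPM in H3K9M and 3.84 to 6.29 CPM in H3WT, without overlap. Of these Ptprc, Adgre1 and Aif1 had no read, and Cd68, Csf1r and Lyz2 had positive log2 fold changes with a median of 0.72, none at an unadjusted p under 0.05. The endothelial markers Cdh5, Emcn and Cldn5 had no read. The part of such cells in the protocadherin levels was not tested. In bulk RNA, fewer cells that use a gene and less of its RNA per cell cannot be told apart. H3WT replicate 2 stood apart from H3WT replicates 1 and 4 in all 3 protocadherin clusters. It had the highest chondrocyte sum and, among 3112 other genes with mean counts in the range of the tested beta genes (10 to 97.7), the largest share at 0, 13.1% against 2.38% to 6.62% in the other 5 libraries. Results are given with and without it where it decides them.

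The 3 clusters lie next to each other on the plus strand of mouse chromosome 18. On RefSeq's GRCm38.p6, the build the submitters' processing notes name as mm10, the alpha genes span chr18:36930285-37188897, the beta genes chr18:37264998-37521419 and the gamma genes chr18:37661775-37841873. In GENCODE M21 models, found for 57 of the members (Pcdha10 had none under this symbol), all 22 beta genes have a model of 1 exon as their longest transcript. Exons after the first, joined over all models of a cluster, cover 2864 bases in alpha and 2119 bases in gamma. They stand beside own first exons of about 2500 bases (medians 2481 and 2604 bases). The alpha length may include bases that not every member holds, since the models of Pcdha1 and Pcdha4 have 5 exons and the other alpha models 4.

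The sharing shows in the counts. In H3K9M replicate 3 all 14 alpha genes had 21 reads, and 9 of the 14 had the same 6 counts in the 6 libraries. The gamma genes other than Pcdhgc3 had between 2017 and 2157 reads in H3K9M replicate 1 and between 3703 and 3992 in H3WT replicate 1. Counts of this kind arise where a read on a shared exon is counted for every gene that holds the exon. Outside the rule, 3 rows of readthrough genes annotated from an alpha first exon to the gamma end, Gm37013, Gm38666 and Gm38667, bear on this. Gm38666 and Gm38667 both had 2010, 3516 and 2994 reads in H3K9M and 3699, 2914 and 3773 in H3WT. These values lie 0 to 15 reads under the lowest gamma member in each library. Gm37013, which starts at Pcdha4, differed from them in H3WT replicate 2 alone, by 18 reads, and Pcdha4 exceeded the other A-numbered alpha genes there by the same 18 reads. The lowest member count of a cluster in a library was therefore taken as its shared-exon count, and the remainder of each member as its own-exon count. For gamma this split can be checked against exon length, since transcripts that each carry 1 own exon and the shared exons give equal levels per kilobase. The own exons together had 0.849 to 1.01 times the level of the shared exons per kilobase in the 6 libraries. For alpha, with few reads, the same ratio ran from 0 (H3K9M replicate 3) to 3.18 (H3K9M replicate 5) and was undefined in H3WT replicate 2, so the split did not balance there.

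Fitted row by row with edgeR's quasi-likelihood test, 0 of the 44 members tested had a Benjamini-Hochberg adjusted p under 0.05 in the table of 13761 genes. The share of all genes that passed was 0%, the same as among the members. The DESeq2 Wald test called 390 of the 13761 genes and 2 of the 44 members. All 44 had a negative log2 fold change, where 50.4% of all tested genes did, but the rows of a cluster with shared exons are not separate measurements. An unadjusted p under 0.05 was reached by 0 of 14 alpha, 3 of 8 beta and 1 of 22 gamma genes, all lower in H3K9M, where 5.77% of all tested genes were. The 2 further fits described next, on clusters and on own-exon counts, likewise gave 0 adjusted calls, among 13720 rows (0%) and among 13749 rows (0%).

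**Figure D1:**
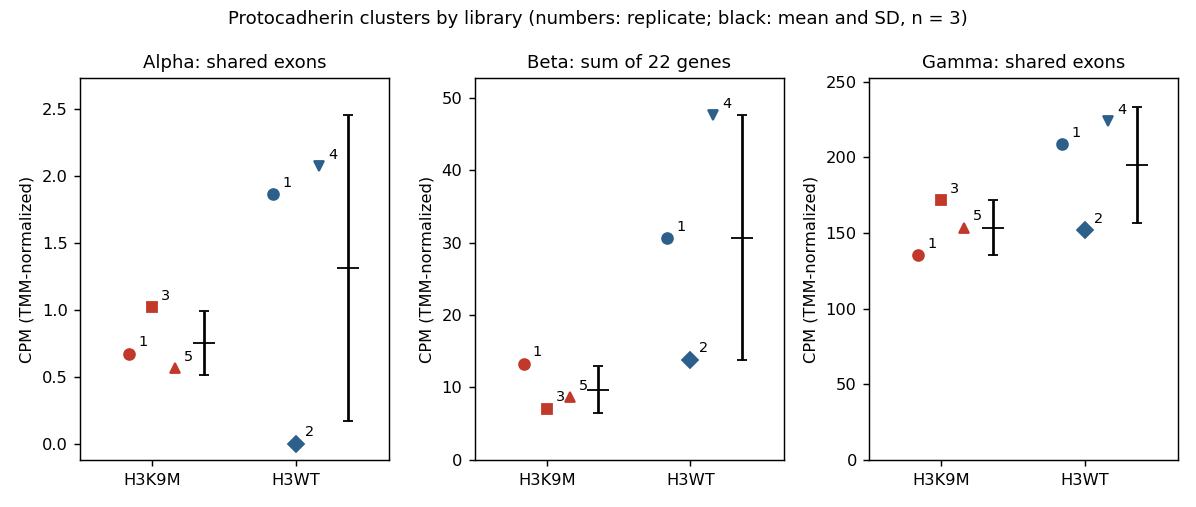
Level of each protocadherin cluster in every library, in CPM on linear axes, with the replicate number beside each point and the mean and SD of 3 libraries in black. In the middle panel the beta sums of H3K9M (7.09 to 13.3 CPM) lie under those of H3WT (13.8 to 47.6 CPM), while the alpha and gamma panels overlap through H3WT replicate 2.

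The alpha cluster was close to silent. Its shared exons had 10, 21 and 11 reads in H3K9M and 33, 0 and 35 reads in H3WT. H3WT replicates 1 and 4 were the highest and H3WT replicate 2 the lowest, so the groups overlapped. The level was 0.752 ± 0.239 (H3K9M) and 1.31 ± 1.14 CPM (H3WT), as mean ± SD of 3 libraries each. With edgeR the log2 fold change of the cluster was -0.79 (SE 1.28, adjusted p 0.855), and its sign depended on the test, since limma-voom gave 0.83. Without H3WT replicate 2 it was -1.38 (adjusted p 0.414).

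Own-exon reads of the alpha cluster came mostly from Pcdhac2, the last gene of the row and a C-type member. Pcdhac2 had 7, 0 and 37 own-exon reads in H3K9M and 54, 8 and 28 in H3WT. These values overlap and the difference did not pass the test (edgeR log2 fold change -1.10, SE 1.36, adjusted p 0.798). The other C-type member, Pcdhac1, had none in any library. Among the 12 A-numbered genes, the H3WT libraries held own-exon reads of Pcdha4 (18 reads, replicate 2), Pcdha8 (6 reads, replicate 4), Pcdha10 (6 reads, replicate 4) and Pcdha12 (3 reads in replicate 1 and 9 in replicate 4). The H3K9M libraries held 1 such read in all, of Pcdha10 in replicate 1. The remaining 8 A-numbered genes had no read above the shared count, which allows up to 3 reads per library. In H3WT replicate 2 the own-exon reads of Pcdha4 and Pcdhac2 came with 0 reads on the shared exons.

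The beta cluster was lower in H3K9M in every library than in any H3WT library. The 22 genes together had 198, 146 and 170 reads in H3K9M and 543, 266 and 805 in H3WT. This was 9.70 ± 3.22 (H3K9M) and 30.7 ± 16.9 CPM (H3WT), as mean ± SD of 3 libraries each, with the nearest libraries, H3K9M replicate 1 (13.3 CPM) and H3WT replicate 2 (13.8 CPM), nearly level. The log2 fold change of the sum was -1.67 (SE 0.46), a level 3.17 times higher in H3WT. It did not pass over all genes, with an adjusted p of 0.25 (edgeR), and the exact permutation test of the sum gave a two-sided p of 0.1 (0.167 after Benjamini-Hochberg adjustment over 5 values). The smallest p that 3 libraries against 3 allow is 0.1. Without H3WT replicate 2, the lowest H3WT library in this sum, the log2 fold change was -2.02 and passed (adjusted p 0.043, edgeR). Leaving that library out widens the difference, so this pass adds no support. On the table of single genes 0.639% passed without it. Leaving out any other library gave adjusted p of 0.428 to 0.517 (edgeR). With the DESeq2 Wald test on all libraries the sum passed (-1.67, adjusted p 0.013). On the table of single genes that test called 390 of 13761 genes, where edgeR called 0.

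Pcdhb22, the last gene of the cluster, had nearly equal mean levels in both groups and gave most of the beta reads in H3K9M. It had 109, 87 and 97 reads in H3K9M and 115, 33 and 145 in H3WT. The levels, 5.48 ± 1.62 CPM and 5.57 ± 3.50 CPM, overlapped (edgeR log2 fold change -0.02, SE 0.56, adjusted p 0.992). The sign turned under 6 of 12 alternatives. Pcdhb22 took 55.1%, 59.6% and 57.1% of all beta reads in the H3K9M libraries and 21.2%, 12.4% and 18.0% in H3WT. The 95% Wilson intervals of these shares, which cover counting error only, ran from 48.1% to 67.2% over H3K9M and from 8.97% to 24.8% over H3WT. With Pcdhb22 set aside, a choice made after its values were seen and therefore given no test, the other 21 genes summed to 4.18 ± 1.60 CPM in H3K9M and 25.0 ± 13.4 CPM in H3WT. Its GENCODE model overlaps that of Pcdhb21 by a stretch of 455 identical bases, so reads there may be counted for either gene or both.

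**Figure D2:**
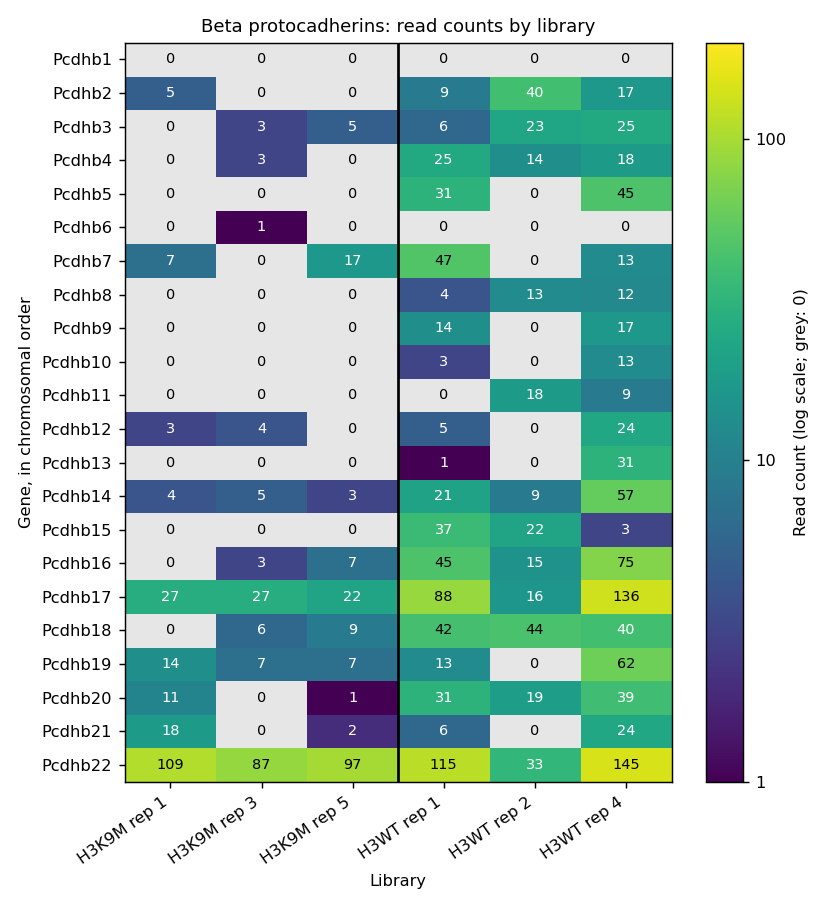
Read counts of the 22 beta genes (rows, in chromosomal order) in each library (columns), coloured on a log scale with 0 in grey. The H3K9M columns are mostly grey above Pcdhb14, with Pcdhb22 (87 to 109 reads) as their main signal, while H3WT replicates 1 and 4 have reads for most genes and H3WT replicate 2 for 12 of 22.

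Fewer beta genes were detected in H3K9M. More than 3 reads were found for 8, 6 and 7 of the 22 genes in H3K9M and for 17, 12 and 19 in H3WT, so the groups did not overlap (exact permutation test, two-sided p 0.1, the smallest possible, and 0.167 adjusted over 5 values). Of the 22 genes, 20 had a lower mean level in H3K9M, against 47.9% of all genes with a count. Pcdhb6 had the only higher mean, from 1 read, and Pcdhb1 had no read in any library. For 9 genes every H3K9M library lay below every H3WT library (Pcdhb2, Pcdhb3, Pcdhb4, Pcdhb8, Pcdhb14, Pcdhb15, Pcdhb16, Pcdhb18 and Pcdhb20), and for none the reverse. Over all 19994 genes with a count these shares were 6.34% and 8.54%.

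For genes absent from H3K9M, lower bounds were set on pooled counts. These bounds allow for counting error in H3K9M alone, and take the pooled H3WT count as it stands. They do not cover the spread between libraries, and the genes were picked for having no H3K9M read. With at least 1 read in H3WT, 7 beta genes had none in any H3K9M library: Pcdhb5, Pcdhb8, Pcdhb9, Pcdhb10, Pcdhb11, Pcdhb13 and Pcdhb15. Of these, Pcdhb8 (4, 13 and 12 reads) and Pcdhb15 (37, 22 and 3 reads) were present in all 3 H3WT libraries. Set against a floor of 3 reads over the pooled H3K9M libraries, the pooled level was at least 21.1-fold lower in H3K9M for Pcdhb15 and at least 9.87-fold lower for Pcdhb8. Pcdhb5 had 31 and 45 reads in H3WT replicates 1 and 4 but 0 in H3WT replicate 2. Its pooled level was at least 25.9-fold lower in H3K9M, a bound that rests on those 2 libraries.

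Of the 22 beta genes 8 passed the filter on low counts. A sparse gene passes it most readily through the group in which it is higher, so counts over these 8 describe them and support nothing. Pcdhb18 had the steadiest H3WT values, 42, 44 and 40 reads in replicates 1, 2 and 4, against 0, 6 and 9 in H3K9M. H3WT replicate 2 was not low here, and the groups were far apart (edgeR log2 fold change -3.15, SE 1.05, adjusted p 0.303). Pcdhb16 had 0, 3 and 7 reads against 45, 15 and 75 (log2 fold change -3.84, SE 1.19, adjusted p 0.28). Pcdhb4 had 0, 3 and 0 reads against 25, 14 and 18, the lowest log2 fold change among the 8 (-4.18, SE 1.38, adjusted p 0.299). These 3 genes had an unadjusted p under 0.05. Pcdhb16 and Pcdhb18 passed with the DESeq2 Wald test (adjusted p 0.0229 and 0.0344). They were the only members among the 390 of 13761 genes it called on these counts.

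Pcdhb17 was the other well-covered beta gene. It had 27, 27 and 22 reads in H3K9M and 88, 16 and 136 in H3WT, so H3WT replicate 2 lay under every H3K9M library. Its edgeR log2 fold change was -1.70 (SE 0.77, adjusted p 0.423) and -2.19 without that library (adjusted p 0.0962). Pcdhb20 had 11, 0 and 1 reads against 31, 19 and 39, with no overlap. Pcdhb7 had 7, 0 and 17 reads against 47, 0 and 13, and Pcdhb19 had 14, 7 and 7 against 13, 0 and 62, both with overlap, also among the other libraries when H3WT replicate 2 is set aside. Pcdhb14, which missed the filter, had 4, 5 and 3 reads against 21, 9 and 57. Per kilobase of model, Pcdhb22 led in H3K9M (0.83 CPM per kb), followed by Pcdhb17 (0.303), and Pcdhb17 led in H3WT (0.986), followed by Pcdhb22 (0.843).

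H3WT replicate 2 had reads for 12 beta genes, all of them also found in H3WT replicate 4. It had 0 reads for 8 genes found in both of the others (Pcdhb5, Pcdhb7, Pcdhb9, Pcdhb10, Pcdhb12, Pcdhb13, Pcdhb19 and Pcdhb21). It had the most reads of any library for Pcdhb2 (40), Pcdhb11 (18) and Pcdhb18 (44), where the next highest libraries had 17, 9 and 42. Without H3WT replicate 2, 12 beta genes passed the filter and 7 of them had an unadjusted p under 0.05, all lower in H3K9M. Over all genes 17.1% had such a p in either direction. Sparse genes again pass the filter through the group in which they are higher. Pcdhb5 and Pcdhb9, among these genes, had 0 reads in every H3K9M library. The count therefore describes these genes and supports nothing. None of these 7 passed over all genes in that fit, in which 0.639% of genes did (smallest adjusted p among beta genes 0.0923, edgeR).

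The gamma cluster was the abundant one. Its shared exons had 2017, 3531 and 3000 reads in H3K9M and 3703, 2914 and 3785 in H3WT. This was 153.5 ± 18.0 (H3K9M) and 194.8 ± 38.1 CPM (H3WT), as mean ± SD of 3 libraries each, with H3WT replicate 2 (151.7 CPM) inside the H3K9M range. The edgeR log2 fold change was -0.34 (SE 0.17, adjusted p 0.459) and -0.50 without H3WT replicate 2 (adjusted p 0.154). Row by row the 22 gamma genes gave the same picture, with log2 fold changes of -0.39 to -0.28 and a median of -0.35, beside -0.003 over all tested genes. The 1 gamma row with an unadjusted p under 0.05 was Pcdhga10. Without H3WT replicate 2 all 22 gamma rows, which share most of their reads, had an unadjusted p under 0.05, with log2 fold changes of -0.52 to -0.40 and 0 adjusted calls (smallest adjusted p 0.138). In that fit 17.1% of all genes had such a p, and 1 of the 14 alpha rows, Pcdhac2, did.

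Pcdhgc3, a C-type member, was the main source of gamma transcripts, and its level did not differ beyond the spread. Its own exon had 1266, 2158 and 1745 reads in H3K9M and 2086, 1723 and 1765 in H3WT. The levels were 93.1 ± 10.4 CPM and 103.9 ± 13.9 CPM and overlapped (edgeR log2 fold change -0.16, SE 0.14, adjusted p 0.702). The median of the other 21 members was 43, 55 and 51 own-exon reads in the H3K9M libraries and 114, 80 and 111 in H3WT, which do not overlap. Pcdhgc3 had 29.4 to 39.2 times the reads of the median member in H3K9M and 15.9 to 21.5 times in H3WT, over own exons of 2499 to 2961 bases.

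**Figure D3:**
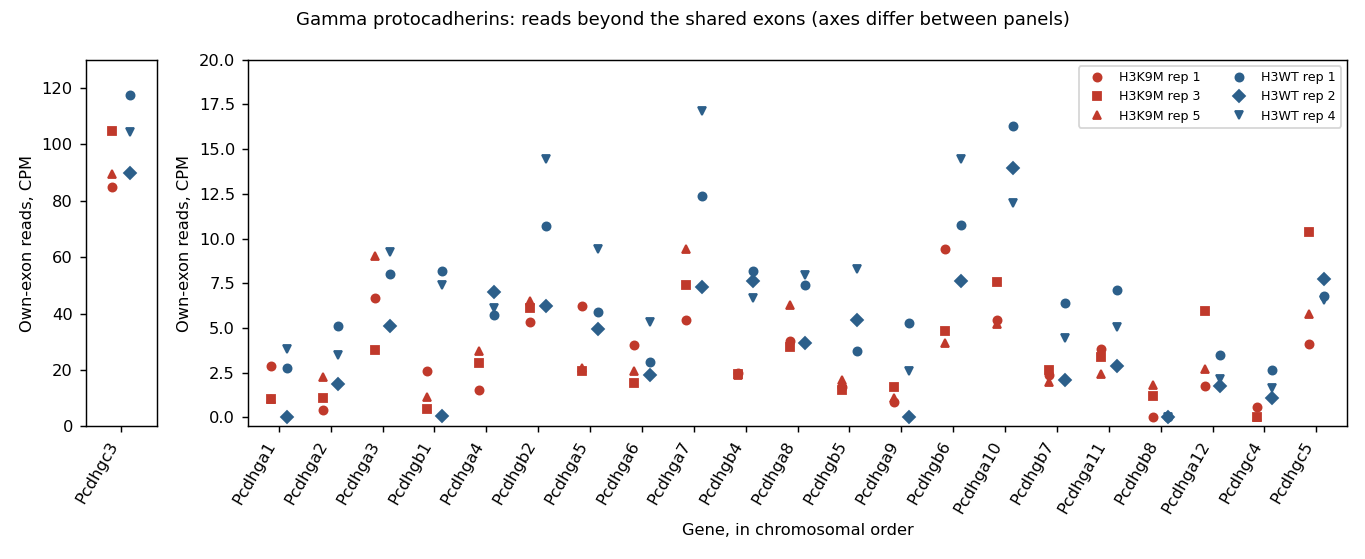
Own-exon reads of the 22 gamma genes in CPM, with 1 symbol per library (red H3K9M, blue H3WT), Pcdhgc3 on its own linear axis at left and the other genes in chromosomal order at right. Pcdhgc3 overlaps between the groups (means 93.1 and 103.9 CPM), while for Pcdhgb4, Pcdhgb5, Pcdhga4, Pcdhga10 and Pcdhgc4 all H3WT points lie above all H3K9M points.

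Own-exon counts could be tested for 21 of the 22 gamma genes, all but Pcdhgb8, and 20 of the 21 had a lower fitted level in H3K9M, Pcdhgc3 among them, where 50.3% of all rows of that table had a negative log2 fold change. Their median log2 fold change was -0.81, beside -0.002 over all rows. The groups did not overlap for 5 genes, all lower in H3K9M (8.72% of all rows), and these were Pcdhga4, Pcdhgb4, Pcdhgb5, Pcdhga10 and Pcdhgc4. An unadjusted p under 0.05 was reached by 5 genes, all lower (5.80% of all rows). They were Pcdhga4, Pcdhgb4, Pcdhgb5, Pcdhga10 and, in place of Pcdhgc4, Pcdhgb2. The groups overlapped for Pcdhgb2, and its unadjusted p of 0.0494 (edgeR) became 0.0715 with the shared count taken from Gm38666. Pcdhgb4 had 37, 50 and 46 own-exon reads in H3K9M and 145, 147 and 113 in H3WT. Both groups were tight, at 2.42 ± 0.066 CPM and 7.50 ± 0.755 CPM, and H3WT replicate 2 was as high as the others (edgeR log2 fold change -1.63, SE 0.33, adjusted p 0.185). This was the smallest p of any member.

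Pcdhga10, with the most own-exon reads in H3WT after Pcdhgc3, had 81, 156 and 102 own-exon reads against 289, 268 and 203 (edgeR log2 fold change -1.21, SE 0.27, adjusted p 0.202). Pcdhgb5 had 25, 32 and 41 against 66, 105 and 140 (-1.71, SE 0.46, adjusted p 0.236). With the DESeq2 Wald test Pcdhgb4, Pcdhgb5 and Pcdhga10 passed (adjusted p 0.00157, 0.0285 and 0.00901), the only ones among 22 own-exon rows tested. Its share over all rows of that table is not given here. On the unsplit counts it called 390 of 13761 genes, where edgeR called 0. Pcdhga7 had 81, 152 and 184 against 220, 140 and 290, and Pcdhgb6 had 140, 100 and 81 against 191, 146 and 244, each with overlap. Pcdhgb2 had 79, 126 and 127 against 190, 120 and 244, and its log2 fold change of -0.81 had an adjusted p of 0.408. The only tested gamma gene with a positive value was Pcdhga12, the last A gene, with 26, 122 and 53 reads against 62, 34 and 36 (log2 fold change 0.49, SE 0.60, adjusted p 0.792).

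The other C-type genes differed among themselves. Pcdhgc5, the last gene of the cluster, had 61, 214 and 113 own-exon reads in H3K9M and 120, 149 and 111 in H3WT (edgeR log2 fold change -0.05, SE 0.39, adjusted p 0.974). Pcdhgc4 had 9, 0 and 0 against 47, 21 and 28, with no overlap (-3.21, SE 1.48, adjusted p 0.428). It was itself the lowest member in H3K9M replicates 3 and 5, which sets those counts to 0. With the shared count taken from Gm38666, a choice made after the data were seen, Pcdhgc4 had 16, 15 and 6 reads against 51, 21 and 40, which gave -1.58 on the log2 scale (SE 0.80, adjusted p 0.464). Pcdhgb8, a transcribed pseudogene in RefSeq, was not tested and had 0, 25 and 35 own-exon reads against 0, 0 and 0. Pcdhgb8 was the lowest member in the 4 libraries at 0. Against Gm38666 it had 7, 40 and 41 reads against 4, 0 and 12, and H3K9M replicate 1 lay within the H3WT range. With that shared count Pcdhgb8 could be tested and had a positive log2 fold change of 2.27 (SE 1.28, adjusted p 0.506, edgeR).

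**Figure D4:**
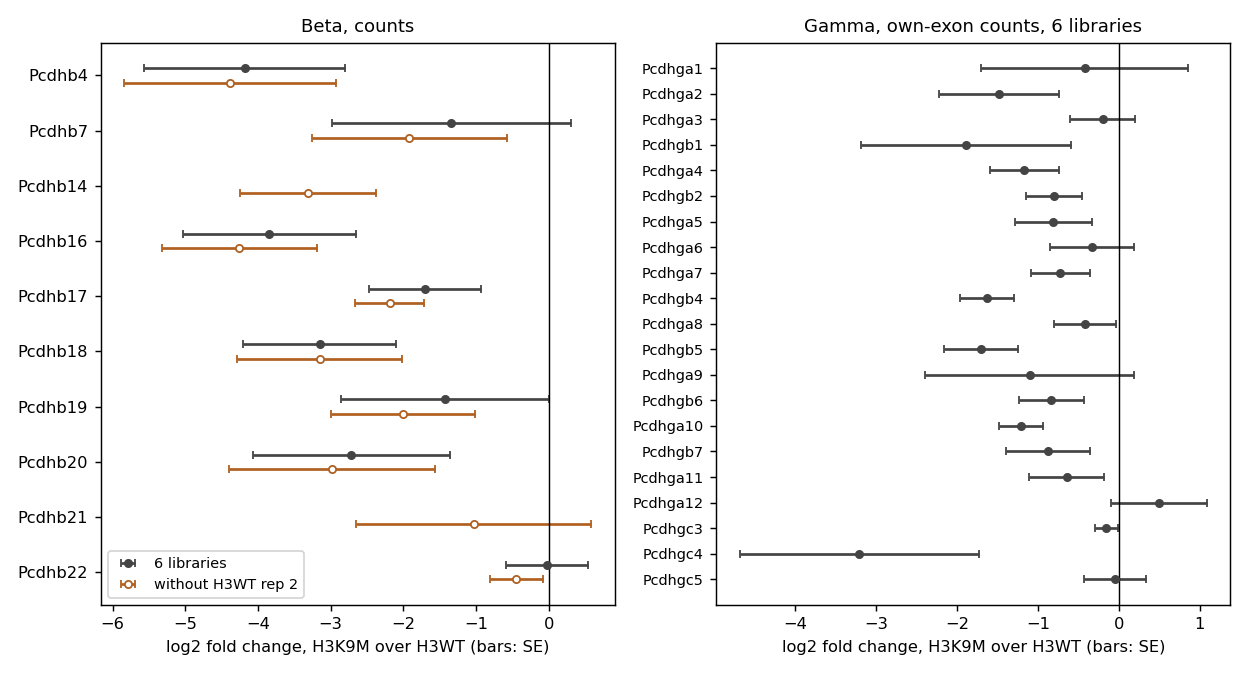
Log2 fold change (H3K9M over H3WT) with its standard error for beta genes with reads in both groups, from all 6 libraries and without H3WT replicate 2 (left), and for own-exon counts of the tested gamma genes (right). The beta estimates other than Pcdhb22 lie at -1.03 or lower in both fits, with Pcdhb22 at -0.02 and -0.44, and at right Pcdhga12 (0.49) is the only point above 0.

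Summed by class, a choice made after the data were seen, the A and B members were lower in every H3K9M library than in any H3WT library. For A this held only with the lowest member as the shared count. Taking Gm38666 instead adds 7, 15 and 6 reads to each member in H3K9M and 4, 0 and 12 in H3WT. The A sums of H3K9M replicates 3 and 5 then lie above that of H3WT replicate 2, while the B sums stay apart. The class fits were not repeated with that shared count. The 12 A genes had 646, 892 and 948 own-exon reads in H3K9M and 1466, 986 and 1425 in H3WT. The levels were 45.1 ± 2.99 CPM and 72.7 ± 18.6 CPM, without overlap (edgeR log2 fold change -0.69, SE 0.20, adjusted p 0.256). The 7 B genes had 355, 398 and 391 reads against 851, 559 and 941. Their levels were 21.1 ± 2.43 CPM and 44.2 ± 13.7 CPM, also without overlap (-1.07, SE 0.25, adjusted p 0.209). Neither passed over the 13745 rows of that table, of which 0% did. Without H3WT replicate 2 both passed with edgeR (A -0.88, adjusted p 0.038, and B -1.29, adjusted p 0.0303). That library had the lowest H3WT level in both sums, so leaving it out widens the difference and these passes add no support. Leaving out any other library gave adjusted p of 0.395 to 0.535 for A and 0.34 to 0.492 for B (edgeR). With the DESeq2 Wald test on all libraries B passed (adjusted p 0.0111) and A did not (adjusted p 0.0786). The share of all rows that this test called in the table of classes is not given here. On the unsplit counts it called 390 of 13761 genes, where edgeR called 0.

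Shares within a library do not depend on the scaling between libraries. Pcdhgc3 made up 54.2% (95% Wilson interval 52.1% to 56.2%), 58.9% (57.3% to 60.5%) and 54.6% (52.9% to 56.3%) of gamma own-exon reads in H3K9M. In H3WT it made up 45.6% (44.2% to 47.1%), 50.1% (48.4% to 51.8%) and 41.3% (39.9% to 42.8%). All 3 H3K9M shares lay above all 3 H3WT shares, by 10.2 percentage points on average (55.9% ± 2.64 against 45.7% ± 4.39, SD, n = 3 each). The exact permutation test gave a two-sided p of 0.1, the smallest possible, and 0.167 after adjustment over 5 values. The intervals do not cover error in the split of the counts. With Gm38666 as the shared count, the Pcdhgc3 share is lower in every library except H3WT replicate 2, where it is unchanged. The order of the groups holds, but the gap narrows and H3K9M replicate 1 lies close above H3WT replicate 2. The B genes had 12.8% ± 2.21 of the reads in H3K9M and 19.0% ± 2.91 in H3WT, without overlap, and the A genes had 27.2% ± 2.67 and 31.4% ± 2.42, with overlap.

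**Figure D5:**
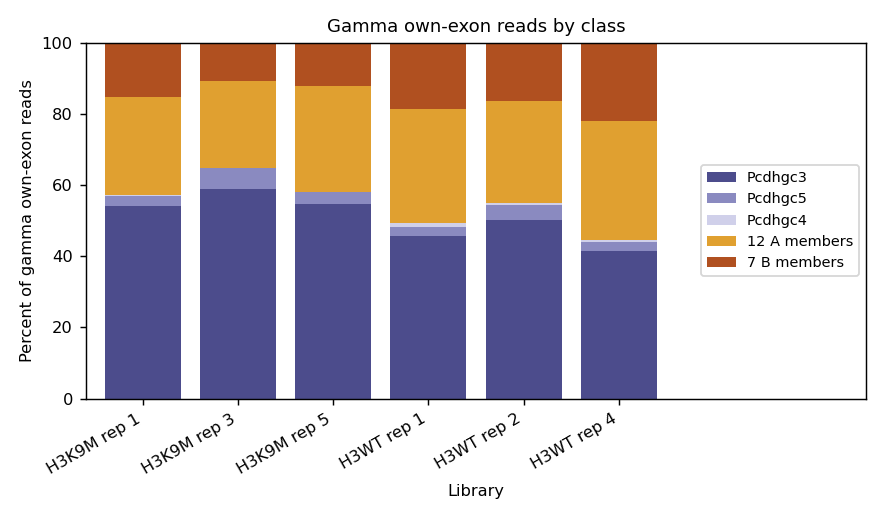
Composition of gamma own-exon reads in each library, in percent of 2337 to 4570 reads, by class of member. The Pcdhgc3 segment reaches 54.2% to 58.9% in the H3K9M libraries and 41.3% to 50.1% in the H3WT libraries.

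Other genes were compared with the same fit to show what surrounded these differences, and with edgeR none of them passed over all genes. Of the 12 protocadherins outside the clusters, 8 were tested, and 4 had an unadjusted p under 0.05, where 12.2% of all genes did. Pcdh7 (edgeR log2 fold change -0.92, SE 0.21, adjusted p 0.206) and Pcdh18 (-1.26, SE 0.39, adjusted p 0.286) were lower in H3K9M, and Pcdh19 (1.40, SE 0.32, adjusted p 0.208) and Pcdh17 (2.06, SE 0.74, adjusted p 0.335) were higher. These genes have their own loci and did not share a direction. Of 20 genes that flank the clusters, 18 were tested, with a median log2 fold change of 0.12 and 5 below 0. Ndufa2 alone had an unadjusted p under 0.05 (0.51, SE 0.17, adjusted p 0.296). Taf7, between the beta and gamma clusters, had 61, 77 and 83 reads in H3K9M and 29, 36 and 119 in H3WT. Diaph1 and Hdac3, beyond the gamma end, had log2 fold changes of -0.11 and 0.11.

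No gene of the known control of the clusters passed over all genes with edgeR. Among the 14 measured genes of CTCF, cohesin and its loaders, 11 had a negative log2 fold change (50.4% of all tested genes did), with a median of -0.07. Ctcf itself had -0.28 (SE 0.14, adjusted p 0.464, edgeR), and Pds5b, a cohesin regulator, was the only one with an unadjusted p under 0.05 (-0.46, SE 0.13, adjusted p 0.239). Of 19 silencing genes 15 had a negative value, with a median of -0.17, and 3 had an unadjusted p under 0.05, all lower in H3K9M, beside 50.4% negative and 5.77% lower at that p among all tested genes. These were Ehmt1 and Ehmt2, which encode the pair of H3K9 methyltransferases GLP and G9a (-0.47, SE 0.12, adjusted p 0.227, and -0.34, SE 0.11, adjusted p 0.299), and Uhrf1, which guides maintenance of DNA methylation (-0.53, SE 0.20, adjusted p 0.364). Setdb1 had -0.17 (SE 0.17, adjusted p 0.729) and Dnmt3b, at 2.33 to 2.49 CPM on average, -0.08. Of 23 tested partners of protocadherins at the membrane and in the cytoplasm, such as the WAVE complex, FAK kinases and the secretase that cleaves them, Ptk2b alone had an unadjusted p under 0.05 (0.99, SE 0.29, adjusted p 0.27, higher in H3K9M).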

How the data were processed

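The authors deposited a table of raw counts, with a column for each library of polyadenylated RNA (per the labels' protocols) and a row for each gene symbol. The submitters' processing notes name HISAT2, featureCounts, DESeq2 and mm10. Versions, annotation, strand and overlap settings are not given in the sources used here, so antisense or overlapping reads cannot be separated. Column names matched sample titles, and 0 columns belonged to other samples.

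The fits used edgeR 4.0.16 under R 4.3.3 (filterByExpr, TMM, glmQLFit with robust estimation, glmQLFTest, genotype as the only term, Benjamini-Hochberg adjustment over all rows, threshold 0.05). The standard error is the log2 fold change divided by the square root of F. DESeq2 1.42.0 and limma 3.58.1 were alternatives, as were other scalings, filters and leaving out each library. Own-exon counts are a member's count minus the lowest count of its cluster in that library. The floor is 3 counts. Intervals are 95% Wilson. Exact permutation tests used the 20 assignments of 3 libraries. Gene models are GENCODE M21, and identity between members came from blastn 2.17.0. The fit was tested on simulated data. The split was run on simulated counts in which Pcdhgc4 had no own-exon reads in any library. The lowest member then equals the shared count by construction, so this could not show how the split errs where every member has own-exon reads.

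Named genes were the members with the lowest count, the 5 largest own-exon totals and the C-type members of alpha and gamma, the 8 most abundant beta genes with those at an unadjusted p under 0.05 or at the ends of the fold changes, members at 0, and up to 3 genes with the smallest p per further list. Others were chosen after their values were seen. The members and lists were chosen with earlier results of these data known. Sequences of the members are not shown here.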

Additional observations from a re-analysis of the deposited data

How the results depend on the processing

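No paired analysis was possible because the groups share only replicate number 1. The count of genes passing over the whole table was 0 as reported, 36 with every gene that had a count, 390 with the DESeq2 Wald test, and 0 to 91 across the 6 leave-one-out fits (91 without H3WT replicate 2 and 2 without H3K9M replicate 3). Members passing numbered 0 under every alternative except DESeq2 (2 genes), and own-exon counts passing numbered 0 except with DESeq2 (3 genes). The beta sum passed with DESeq2 (log2 fold change -1.67) and without H3WT replicate 2, ranged between -2.02 and -1.20 over the leave-one-out fits, and was negative in all 12 alternatives. Over the same fits the gamma shared exons gave -0.50 to -0.23 and the alpha shared exons -1.38 to -0.30, with 0.83 under limma-voom. With at least 10 counts in every library the alpha row could not be fitted and only 2 beta genes remained, with a median of -0.87.

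Signs turned for Pcdhb22 with library size alone (0.049), limma-voom (0.23) and without H3K9M replicate 3 (0.15), H3K9M replicate 5 (0.06), H3WT replicate 1 (0.10) or H3WT replicate 4 (0.43). They turned for the own exon of Pcdhgc5 with library size alone (0.018) and without H3K9M replicate 1 (0.20), H3K9M replicate 5 (0.06) or H3WT replicate 2 (0.03), for Pcdhb19 with limma-voom (0.35) and without H3WT replicate 4 (0.57), and for Pcdhb7 without H3WT replicate 1 (0.22). Over the leave-one-out fits Pcdhb22 ranged from -0.44 to 0.43, Pcdhgc5 from -0.50 to 0.20, Pcdhb19 from -2.05 to 0.57 and Pcdhb7 from -2.28 to 0.22. The causes were not tested. Taking the gamma shared count from Gm38666, an alternative added after the data were seen, moved Pcdhgc4 from -3.21 to -1.58, turned no sign among the named genes and gave 0 calls. With that shared count the summed A genes overlap between the groups. Most alpha and beta genes have under 50 reads in every library, which limits what can be seen in them.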
